A study of Mus musculus with 6 samples.

Results

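The comparison described here sets 2 FK866 plus succinate libraries of cultured mouse ILC2s (innate lymphoid cells of group 2) against the 4 libraries that received no succinate, of which 2 were FK866 and 2 were Control. All 6 deposited peak lists entered. Peaks on chromosomes 1 to 19, X and Y were merged into 101435 regions, of which 22049 held a peak of every library. A region, gene or promoter was called gained when both FK866 plus succinate libraries had a peak there and none of the 4 others did, and lost in the reverse case. By that rule 1459 of the 101435 regions were gained (1.44%) and 487 were lost (0.48%).

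The cells came from the colon and were grown with the cytokines IL-33, IL-25, IL-7 and IL-2, which the labels give for the whole culture and not group by group. The FK866 plus succinate cells carried FK866 and succinate together, the FK866 cells the inhibitor alone, and the Control cells neither as far as the labels state. No group received succinate without FK866. The sources used here give no dose, treatment time, mouse strain or age. They also leave unstated if the 2 libraries of a group were separate cultures or animals. The p values of the linear model (limma) therefore measure only the spread between these libraries. The exact p of a presence count is a rank among pairs of these libraries and measures no spread. The adjusted p of a peak refers to its own list.

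ILC2s are lymphocytes of barrier tissues that lack antigen receptors and make type 2 cytokines. FK866 inhibits NAMPT, the enzyme that recycles nicotinamide into NAD. Succinate is an intermediate of the tricarboxylic acid cycle. It is oxidised by succinate dehydrogenase, can inhibit 2-oxoglutarate-dependent dioxygenases such as histone and DNA demethylases, and acts outside cells on the receptor SUCNR1. Interferons signal through complexes of STAT proteins with IRF9, which bind a DNA element called the interferon-stimulated response element (ISRE) beside the genes they induce. CUT&Tag cuts DNA with a transposase tethered to an antibody on chromatin, so a peak is a stretch enriched for the antibody's target. The sources used here do not name the target. In these bulk lists, the share of cells with a signal and the strength of the signal in each cell cannot be told apart.

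The lists held 45446 and 56361 kept peaks in FK866 plus succinate, 40320 and 43468 in FK866, and 50489 and 41023 in Control. Read counts were not used, since depth was not given. As a relative measure, the spacing of the commonest fold values gave background fragments per position. This inferred depth was 1.74 and 1.25 in FK866 plus succinate, 2.11 and 1.60 in FK866, and 1.85 and 2.14 in Control. The second FK866 plus succinate library had the lowest inferred depth, the most peaks and the narrowest ones, with a median width of 528 bp against 616 to 737 bp in the 4 libraries without succinate. Where lists of equal length are given, they even out the number of peaks and not depth or width. The part of depth and width in the counts that follow was not tested.

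The defining genes of ILC2s carried broad peaks in every library. A gene's value is the percentage of a 4-kb window covered by peaks, with the window centred on the gene's strongest site over all libraries. It measures peak width and presence, not signal height. Gata3, the transcription factor that specifies type 2 lymphocytes, had 60.1% and 61.0% in FK866 plus succinate, 61.1% and 54.7% in FK866, and 57.0% and 62.1% in Control. Il1rl1, the IL-33 receptor, had 81.2% and 80.7% in FK866 plus succinate, 80.6% in both FK866 libraries, and 81.8% and 81.7% in Control. The groups overlapped for both genes, as they did for Rora, Il17rb, Il7r, Il5 and Il13, while Klrg1 was lower in FK866 plus succinate, at 59.6% and 59.1%, than in the 4 libraries without succinate, at 59.8% to 66.0% (limma adjusted p = 0.389).

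Markers of other cells were sparser. T cell markers had peaks at 8 and 9 of 12 genes in FK866 plus succinate and at 9 to 10 in the 4 others, with summed coverage of 279 and 342 against 305 to 373 (percent of a window, added over the list). Cd8a and Cd8b1 had no peak in any library, and Cd3e stood at 0% with succinate in both libraries, at 8.48% and 6.15% in FK866, and at 13.8% and 0% in Control. Of 10 T cell windows covered in at least 2 libraries, 7 were lower with succinate and 3 higher, by up to 17.9 points. Only Cd5, which was lower, had groups that did not overlap. Markers of ILC1 and natural killer cells had peaks at 6 and 4 of 12 genes in FK866 plus succinate and 5 to 7 in the others, with sums of 202 and 150 against 173 to 223, and Ncr1, Klrb1c and Klrk1 had no peak anywhere. Of 7 such windows covered in at least 2 libraries, Eomes and Gzmb lay below all 4 others and 0 lay above. Over all windows 24.5% lay below without overlap and 3.63% above. ILC3 markers had peaks at 9 and 8 of 12 against 7 to 8 (298 and 292 against 259 to 323), and Il17a and Il23r had none. B cell markers had peaks at 4 of 8 in both against 4 to 5 (120 and 100.1 against 126 to 153), with Ms4a1 at 0% everywhere and Cd79a at 0% in FK866 plus succinate. Of 5 B cell windows covered in at least 2 libraries, 4 were lower and 1 higher, and the groups overlapped at each. Myeloid markers had peaks at 9 and 8 of 12 against 7 to 8 (236 and 221 against 249 to 301), with none at Adgre1. Both FK866 plus succinate libraries lay above the 4 others at Fcgr1 and Itgam, and below them at Ccr2, Cd68, Flt3 and Spi1. Mast cell and basophil markers had peaks at 2 and 3 of 8 against 2 to 3 (54.1 and 66.9 against 48.9 to 86.5), with none at Fcer1a, Cpa3 or Mcpt8. Epithelial markers had peaks at 6 and 8 of 12 against 5 to 7 (94.0 and 181 against 111 to 196), with none at Krt19 or Krt20. Stromal and endothelial markers had peaks at 8 and 5 of 10 against 6 to 8 (246 and 190 against 222 to 266), with none at Cdh5 or Dcn. Of 8 such windows covered in at least 2 libraries, Acta2 and Pecam1 lay below all 4 others and 0 lay above. The groups overlapped for all of these sums except those of B cell and myeloid markers, which were lower in both FK866 plus succinate libraries, and their part in the results was not tested.

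The presence counts asked whether the succinate libraries stood apart from the rest. With all peaks, losses ranked first: more regions, genes and promoters were lost for the FK866 plus succinate pair than for any other pair of the 6 libraries treated as the odd pair. Gains did not rank first with all peaks: at least 1 other pair gave more gained regions, genes and promoters. There are 15 such pairs, so the smallest possible exact one-sided p is 0.0667 and no count can pass 0.05. The 487 lost regions compare with 225 to 382 for the other 14 pairs (median 306.5, exact p = 0.0667, adjusted p over the 4 counts of regions and genes 0.133). The 1459 gained regions ranked second (543 to 1689, median 800.5, exact p = 0.133, adjusted p = 0.178). The pair with 1689 joined the second FK866 plus succinate library to the first Control library, which have the 2 longest lists.

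Of 15887 protein-coding genes with a peak at their site, 40 were gained (0.252%) and 58 were lost (0.365%). The other pairs lost 5 to 34 genes (median 20.5, exact p = 0.0667, adjusted p = 0.133) and gained 8 to 80 (median 14, exact p = 0.2, adjusted p = 0.2). Lost genes did not rank first when peaks were counted over the gene span with 2 kb around it, with 37 lost (exact p = 0.2). Promoters, counted as the 300 bp from 250 before to 50 after a transcription start, were a unit added after the gene counts had been seen. Of 15517 promoters with a peak in any library, 65 were lost (0.419%) against 7 to 28 for the other pairs, and 27 were gained (0.174%) against 16 to 56. The gained promoters lay in the middle of the range.

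With only peaks whose own adjusted p was under 0.05, lost regions numbered 476 of 43759 (1.09%) against 49 to 208 for the other pairs, and gained regions 259 (0.592%) against 169 to 491. Lost genes numbered 105 of 14869 (0.706%) against 3 to 23, and gained genes 21 (0.141%) against 9 to 50. Lost promoters numbered 90 against 7 to 20. When every list was shortened to the same number of strongest peaks, 629 regions, 87 genes and 78 promoters were lost, against at most 364, 25 and 29 for any other pair. The pair ranked first in all 3 units. It ranked 4 of 15 in regions when only the stronger 50% of each list was used, with 138 lost against 16 to 219. With those peaks gained genes and promoters ranked first, at 61 against 4 to 59 and 41 against 6 to 35 (exact p = 0.0667 each). Of the 58 lost genes, 17 were also among the 105 lost with the stricter peaks, which is 29.3% of the first list and 16.2% of the second. With the stronger 50% of each list 33 genes were lost, of which 1 was among the 58 (3.03% of the 33 and 1.72% of the 58), and 4 of the 61 gained genes were among the 40. The named genes therefore depend on which peaks are counted.

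**Figure D1:**
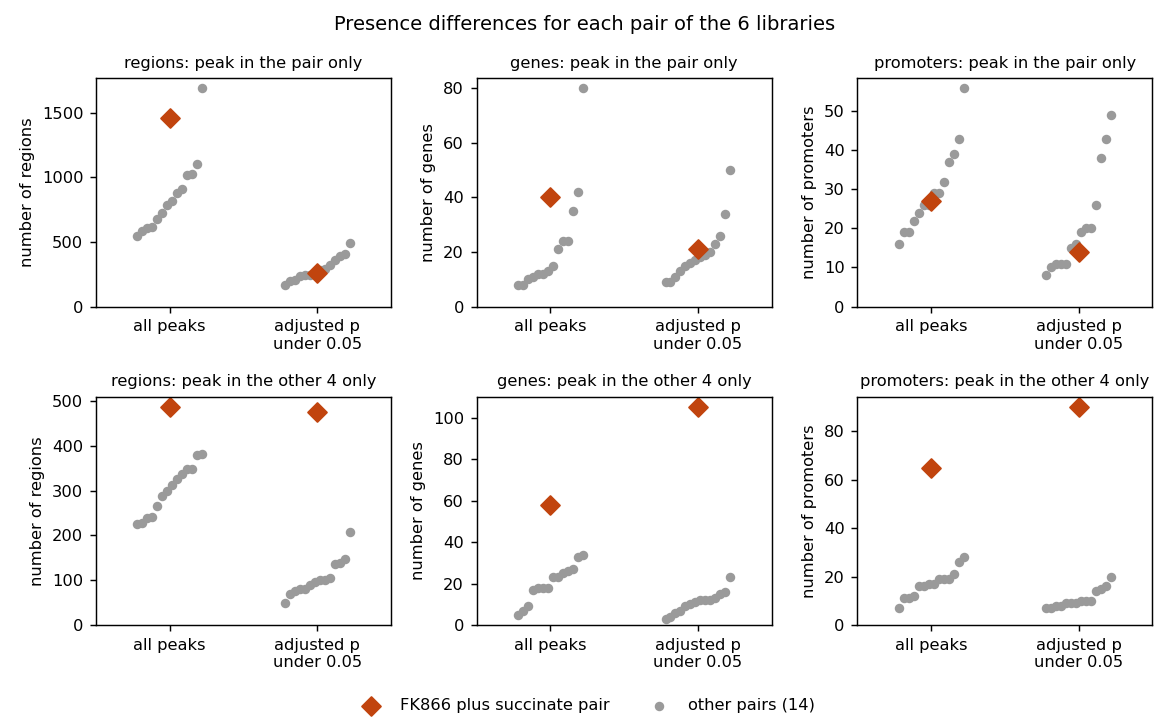
Number of merged regions, protein-coding genes and promoters with a peak in both libraries of a pair and none of the 4 others (top row) or in the 4 others and neither library of the pair (bottom row), for all peaks and for peaks with an adjusted p under 0.05. The diamond is the FK866 plus succinate pair and the grey points are the other 14 pairs; the diamond lies above every point for losses (65 promoters against at most 28) and within the points for gained promoters (27 against 16 to 56).

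Of the gained genes, 5 had a peak of adjusted p under 0.05 in both FK866 plus succinate libraries and no peak of any strength in the 4 others. They were Ifi206, Ifne, Trim6, Phf11a and Slc26a9. Because presence chose these genes, the values below describe them and test nothing. Ifi206, an interferon-inducible DNA sensor of the p200 family, had the strongest gained peaks. Its window had 35.1% and 31.5% in FK866 plus succinate, against 0% in every FK866 and Control library. Its region, chr1:173490258-173491527 (mm10), spans the upstream end of the gene, and its peaks ranked above 67.1% and 74.3% of the peaks of their own lists. The p200 genes are close copies of each other, so short reads can be placed at the wrong member.

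Ifne encodes interferon epsilon, a type I interferon of mucosal epithelia, and its window had 16.5% and 18.8% in FK866 plus succinate against 0% in the 4 others. The site of Ifne lay outside the gene, 1144 bp from its nearest end. Trim6, a ubiquitin ligase of antiviral signalling, had 18.5% and 23.2% in FK866 plus succinate against 0%. Both FK866 plus succinate libraries had similar values at each of these genes. Phf11a, a PHD finger gene, had 6.83% and 8.28% against 0%, and the anion transporter gene Slc26a9 had 9.18% and 13.0% against 0%. The site of Slc26a9 lay inside the gene, 11998 bp from its nearest end. The other 7 genes named by rank had at least 1 FK866 plus succinate peak of weaker adjusted p. Tgtp1, an interferon-induced GTPase with a near-identical neighbour, had 16.1% and 18.3%. C5ar2, a receptor for a complement fragment, had 13.0% and 30.9%. Retn, the gene of the hormone resistin, had 12.5% and 6.58%. Adam1b, Tmem204, Zfp112 and Gm40862 ranged from 7.40% to 31.4% in the FK866 plus succinate libraries. All of these were at 0% in the 4 others by the rule. At the threshold, the weakest peaks of Ifne, Trim6 and Slc26a9 each had a -log10 adjusted p of 1.35, just inside. Those of Adam1b and Tgtp1 had 1.24, just outside.

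The gained promoters are shown where they hold the letters of an ISRE core, GAAA followed after any 2 bases by GAAA, on either strand. The motif was chosen after Ifi206 and its neighbours in rank had been seen. It was found in 4 of the 27 gained promoters (14.8%), those of Ifi206, Phf11a, Tgtp1 and Ncoa7, and in 2.84% of the 15517 promoters with a peak and 3.43% of all 32817. It was found in 2 of the 65 lost promoters (3.08%). The other 4 motifs searched were read on both strands too. A STAT site, TTC followed after any 3 bases by GAA, can overlap the ISRE core and was in 7.41% of gained promoters against 6.54% of those with a peak. The GATA site AGATAA was in 7.41% against 5.81%. An AP-1 site, TGA followed after any base by TCA, was in 7.41% against 4.99%. The GC box GGGCGG was in 29.6% against 62.7%. A match of letters is not a bound site. The sequences below are from RefSeq on GRCm38.p6, whose chromosome coordinates are those of mm10, each read on the minus strand, with the ISRE core in capitals. They lie at chr1:173491269-173491568 for Ifi206, chr14:59297473-59297772 for Phf11a, chr11:48992197-48992496 for Tgtp1 and chr10:30655818-30656117 for Ncoa7.
Ifi206: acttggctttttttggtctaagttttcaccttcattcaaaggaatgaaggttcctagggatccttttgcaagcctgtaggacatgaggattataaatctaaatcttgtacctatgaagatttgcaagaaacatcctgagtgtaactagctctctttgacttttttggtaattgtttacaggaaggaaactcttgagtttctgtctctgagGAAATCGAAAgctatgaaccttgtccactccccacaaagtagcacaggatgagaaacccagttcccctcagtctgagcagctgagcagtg
Phf11a: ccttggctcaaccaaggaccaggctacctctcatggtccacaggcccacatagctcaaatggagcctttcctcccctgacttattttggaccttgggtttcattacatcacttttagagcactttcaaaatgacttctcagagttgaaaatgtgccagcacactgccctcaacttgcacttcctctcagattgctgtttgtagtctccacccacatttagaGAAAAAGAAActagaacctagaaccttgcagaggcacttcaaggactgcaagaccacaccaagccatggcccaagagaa
Tgtp1: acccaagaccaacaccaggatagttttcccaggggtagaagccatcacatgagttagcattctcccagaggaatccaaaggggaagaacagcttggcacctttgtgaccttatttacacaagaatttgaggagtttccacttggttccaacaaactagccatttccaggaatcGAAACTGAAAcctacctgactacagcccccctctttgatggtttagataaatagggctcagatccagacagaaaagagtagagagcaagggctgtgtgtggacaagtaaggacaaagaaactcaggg
Ncoa7: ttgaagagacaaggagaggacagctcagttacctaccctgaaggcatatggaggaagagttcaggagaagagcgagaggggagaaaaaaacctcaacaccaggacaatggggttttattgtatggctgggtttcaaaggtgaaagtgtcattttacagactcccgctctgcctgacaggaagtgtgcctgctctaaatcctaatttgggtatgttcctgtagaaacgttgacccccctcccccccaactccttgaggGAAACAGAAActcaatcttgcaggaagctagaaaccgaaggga

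These 4 promoters were poor in CpG, with 1, 0, 1 and 4 CpG pairs. Peaks of the FK866 plus succinate libraries covered 21.3% and 86.3% of the Ifi206 promoter and 90.3% and 42.3% of that of Ncoa7, a nuclear receptor coactivator. Neither promoter had a peak in FK866 or Control. In 13 of the 27 gained promoters, Ifi206, Trim6, Ncoa7, Tgtp1 and Phf11a included, the whole merged region lacked peaks of the 4 libraries without succinate. In the other 14 a region present without succinate had extended over the promoter.

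Interferon-inducible genes were also followed beyond the gained genes. A list of 49 interferon-inducible genes was used, of which 45 were in the gene table and 35 had a peak. Of these 35, 1 was gained, Ifi206, and 0 were lost, against 0.252% and 0.365% of all genes. Windows of 33 list members were covered in at least 2 libraries. Of these 33, 24 were covered more in FK866 plus succinate than in the mean of the FK866 and Control groups and 9 less, with a median difference of 3.13 percentage points. Over all 15167 windows 27.3% were higher and the median was -1.54. After the libraries were scaled to 1 distribution, 27 of the 33 were higher with a median of 4.55 points, and 55.3% of all windows with a median of 0.37. For 13 of the 33 both FK866 plus succinate libraries lay above all 4 others, and for 3, Gbp3, Gbp4 and Isg15, below them. Over all windows 551 (3.63%) lay above without overlap and 3714 (24.5%) below. No list member passed an adjusted p of 0.05 by limma, and at an unadjusted p under 0.05 there were 13 in the wider direction and 1 in the narrower. The list is described by these counts, since it was chosen with earlier results known.

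Antiviral effectors were among the 13 genes whose windows lay above all others without overlap. Ifit1, which binds viral RNA caps, had 36.2% and 52.1% in FK866 plus succinate, 8.15% and 10.2% in FK866, and 7.78% and 9.95% in Control (limma adjusted p = 0.0922). The groups lay far apart, although its window is shared with Ifit1bl1. Rsad2, the antiviral enzyme viperin, had 37.1% and 39.2% in FK866 plus succinate, 20.6% and 13.3% in FK866, and 22.1% and 15.7% in Control. Oas1a, which makes the activator of RNase L, had 32.1% and 27.3% in FK866 plus succinate, 14.9% and 0% in FK866, and 14.3% and 8.15% in Control. Both FK866 plus succinate libraries exceeded all others at each. Oas3, of the same family, had 60.2% and 59.7% in FK866 plus succinate, 32.9% and 50.5% in FK866, and 35.8% and 26.7% in Control. Oasl1, a regulator of Irf7 translation, had 36.6% and 41.8% in FK866 plus succinate, 19.6% and 25.1% in FK866, and 19.5% and 25.6% in Control.

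The DNA sensor cluster on chromosome 1 moved unevenly. Ifi209 had 37.6% and 38.9% in FK866 plus succinate, 11.3% and 0% in FK866, and 6.85% and 13.7% in Control. Ifi203 had 59.5% and 39.1% in FK866 plus succinate, 27.0% and 25.7% in FK866, and 19.5% and 21.5% in Control. Both were separated between the groups, whereas Aim2, which drives the inflammasome, was not, with 43.9% and 27.5% in FK866 plus succinate and 39.0% to 42.8% in the 4 others. Among the signalling genes, Irf9 had 50.3% and 47.2% in FK866 plus succinate, 37.4% and 39.0% in FK866, and 45.1% and 43.0% in Control. Irf7 had 37.4% and 37.0% in FK866 plus succinate against 36.1% to 42.0% in the others, and its groups overlapped. Without the first FK866 plus succinate library 19 of the 33 windows were higher, with a median of 1.24 points, and without the second 25 were, with a median of 5.51.

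**Figure D2:**
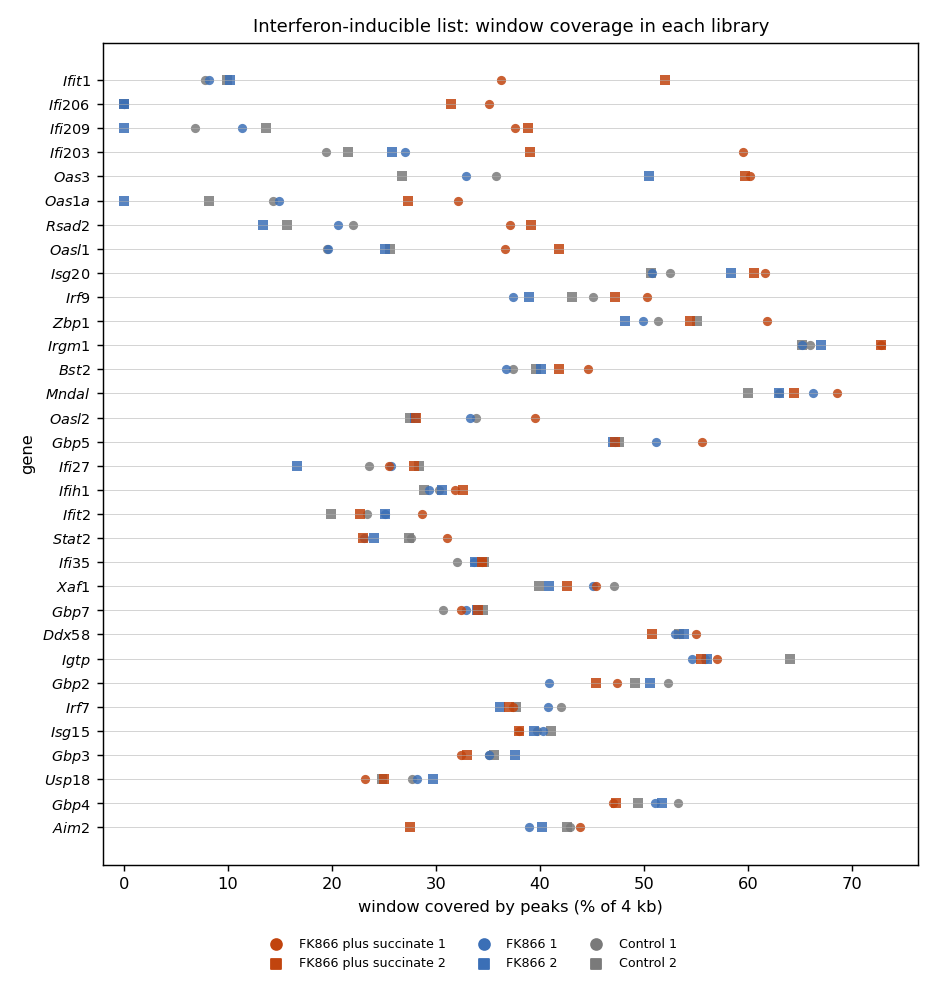
Percentage of the 4-kb window covered by peaks (x axis) in each library for 32 of the 33 interferon-inducible genes tested, ordered by the difference. Circles are the first and squares the second library of each group; both FK866 plus succinate libraries lie above all 4 others for 13 genes, such as Ifit1 at 36.2% and 52.1% against 7.78% to 10.2%.

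Among the 58 lost genes, 17 had no peak of any strength in FK866 plus succinate and a peak of adjusted p under 0.05 in all 4 libraries without it. No other pair had more than 2 such genes. These too were chosen by presence and their values are a description. In every one of the genes that follow both FK866 plus succinate libraries had 0%. Transcription factor genes included Zbtb16, which encodes PLZF of innate lymphoid precursors, with 19.5% and 15.2% in FK866 and 19.6% and 20.1% in Control. Barx2, a homeobox gene of muscle and epithelium, had 20.7% and 26.4% in FK866 and 21.2% and 14% in Control. Hoxc8, a homeobox gene of axial patterning, had 11.9% and 7.58% in FK866 and 16.4% and 14.4% in Control. FK866 and Control values overlapped for Barx2, while for Zbtb16 and Hoxc8 both FK866 values were under both Control values.

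Erg, an ETS factor of endothelium and blood stem cells, had 8.45% and 9.28% in FK866 and 20.5% and 16.3% in Control. Both FK866 values of Erg lay under both Control values. Wnt7a, a secreted Wnt ligand, had 20.3% and 27.1% in FK866 and 30.5% and 26.1% in Control. Among signalling and cell-surface genes, the kinase gene Mark1 had 13.2% and 11.7% in FK866 and 16.0% and 22.3% in Control. Gprin1, a neurite outgrowth gene, had 21.6% and 26.1% in FK866 and 22.1% and 27.5% in Control. The zinc finger gene Zfp385b, whose lost peaks ranked highest, had 27.7% and 9.98% in FK866 and 20.9% and 21.9% in Control. No end of another protein-coding gene lay in the windows of Mark1, Gprin1 and Zfp385b. The start of the noncoding RNA gene Gm39728, whose promoter was lost too, lay in the window of Mark1.

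Plk5, Kirrel, Tmem178 and Vstm2l, also named by rank, ranged from 9.98% to 32.7% in FK866 and from 12.6% to 41.8% in Control. Aldh3b2, Morc4, Nos1 and Csrp3 were also among the 17. Morc4 and Nos1 were just inside the threshold, at a lowest -log10 adjusted p of 1.33. The homeobox gene Irx4 was just outside at 1.11, as were Cd163l1 and Olfr524. Other lost genes, named after their values were seen, included the regulators Emx1, Egr4, Nkx1-1, Nr2e1, Klf14, Prdm6 and Tcf15, the Wnt pathway genes Wnt8b, Fzd10 and Pygo1, and the neuronal genes Slc6a3, Crhr1, Ntrk3 and Cnr1. For 45 of the 58 the site lay within 2 kb of a gene end, and 58 genes shared 57 sites because Eras and Pcsk1n had the same one.

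Of a list of 26 developmental regulators, 23 had a peak and 3 were lost, Wnt7a, Barx2 and Hoxc8, against the 0.365% of all genes that were. Their windows were lower in 18 of 23, where 72.7% of all windows were lower. The median difference was -4.29 points against -1.54 over all genes, and 7 of 23 lay below all others without overlap, where 24.5% of all windows did. After the same scaling 16 of 23 were lower, with a median of -2.18 points, where 44.7% of all windows were lower. The drop was not particular to this list. The median was -4.15 points (-2.17 after scaling) over 10 windows of T cell markers. It was -4.49 points (-3.37 after scaling) over 7 windows of ILC1 and natural killer cell markers. Sox9, a factor of cartilage and gut epithelium, had 22.1% and 30.6% in FK866 plus succinate, 47.4% and 36.3% in FK866, and 38.7% and 39.3% in Control. Hoxa9 had 21.2% and 21.9% in FK866 plus succinate, 26.1% and 24.3% in FK866, and 28.5% and 29.3% in Control. Lhx2 and Wnt10a ran the other way, with differences of 2.61 and 4.05 points and overlapping groups. None of the 23 passed an adjusted p of 0.05 by limma, and 7 narrower and 0 wider had an unadjusted p under 0.05. Over all 15167 windows 2113 narrower and 303 wider did.

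**Figure D3:**
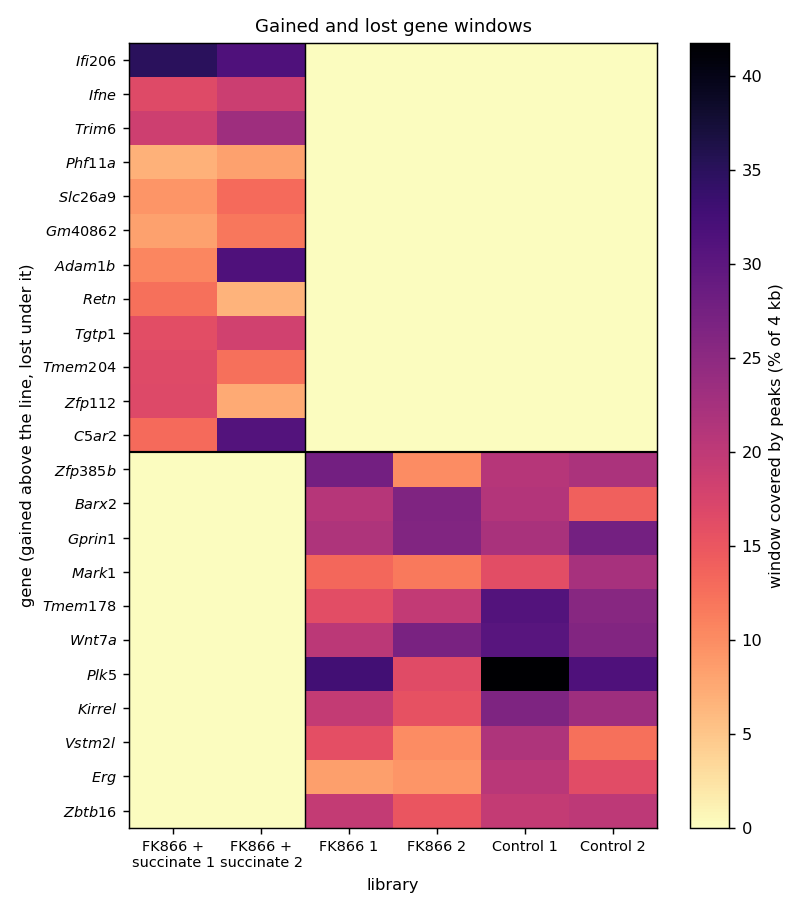
Percentage of the 4-kb window covered by peaks (colour) in each library (columns) for 12 gained and 11 lost genes named by rank (rows). Gained rows are 0% in the 4 right-hand columns and lost rows 0% in the 2 left-hand columns by the choice of genes. The values elsewhere run from 6.58% at Retn in the second FK866 plus succinate library to 41.8% at Plk5 in the first Control library, with 35.1% and 31.5% at Ifi206.

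Lost promoters differed from gained ones in base composition, which the rule did not use. The 65 lost promoters had a median GC content of 65.7% and a median of 22 CpG pairs in 300 bp. For the other 14 pairs the median GC of lost promoters was 49.8% to 65.5%, the next highest being the second FK866 library with the second FK866 plus succinate library (exact p = 0.0667, one-sided, the smallest possible). The 27 gained promoters had a median GC content of 50.7%, under the 52.7% to 59.3% of the other pairs (exact p = 0.0667). These 2 composition ranks were among several looked at after the data were seen. All promoters with a peak in any library had a median GC of 61.3% and 20 CpG pairs. With lists of equal length, the lost promoters of the FK866 plus succinate pair ranked second, at 65.3%, behind the same other pair at 67.3%.

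The promoters with a peak were divided into 5 classes of GC content of about equal size. In the top class, from 69.3% to 88.7% GC, a peak was present at 95.4% and 94.3% of the 3212 promoters in FK866 plus succinate, at 97.6% and 96.2% in FK866, and at 98.3% and 97.5% in Control. Both FK866 plus succinate libraries were below all 4 others. In the lowest class, from 29% to 53% GC, the values were 79.8% and 81.4% in FK866 plus succinate, 78.6% and 79.0% in FK866, and 82.0% and 78.9% in Control, and the groups overlapped. The top class held 21 of the 65 lost promoters and 0 of the 27 gained ones, while the lowest class held 11 lost and 16 gained. With lists of equal length the top class had 95.2% and 93.5% in FK866 plus succinate, 97.6% and 96.1% in FK866, and 97.7% and 97.5% in Control. The second FK866 library, with an inferred depth of 1.60, stood nearest to the FK866 plus succinate libraries, with 1.74 and 1.25, and the part of depth in this order was not tested.

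**Figure D4:**
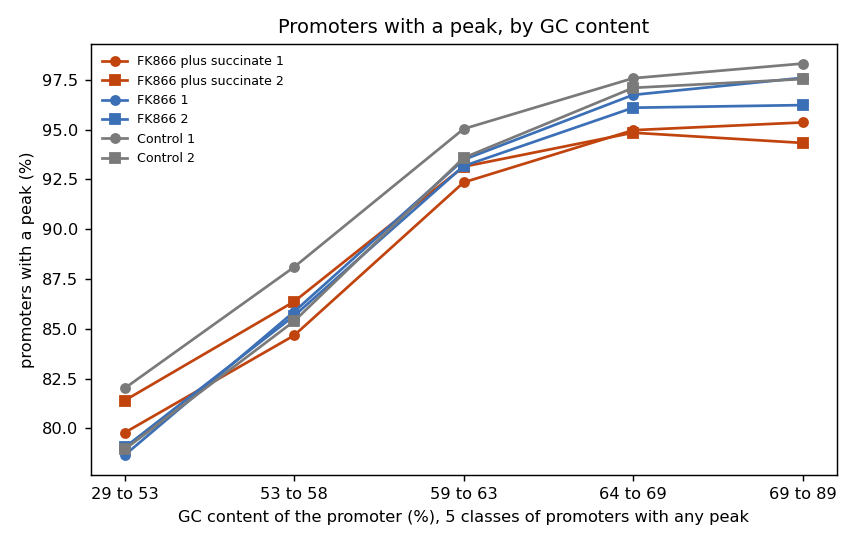
Percentage of promoters with a peak (y axis, not starting at 0) in each library, by class of promoter GC content from low to high (x axis). The 2 FK866 plus succinate lines lie lowest in the top class, at 95.4% and 94.3% against 96.2% to 98.3%, and among the other lines in the lowest class.

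Promoters of 3 lost genes are shown for their density of CpG pairs, which stand in capitals. They are from RefSeq on GRCm38.p6, each on the minus strand, at chr2:77816767-77817066 for Zfp385b, chr13:54749825-54750124 for Gprin1 and chr6:91411304-91411603 for Wnt7a. Their GC contents were 78%, 68.7% and 76%, with 43, 27 and 42 CpG pairs.
Zfp385b: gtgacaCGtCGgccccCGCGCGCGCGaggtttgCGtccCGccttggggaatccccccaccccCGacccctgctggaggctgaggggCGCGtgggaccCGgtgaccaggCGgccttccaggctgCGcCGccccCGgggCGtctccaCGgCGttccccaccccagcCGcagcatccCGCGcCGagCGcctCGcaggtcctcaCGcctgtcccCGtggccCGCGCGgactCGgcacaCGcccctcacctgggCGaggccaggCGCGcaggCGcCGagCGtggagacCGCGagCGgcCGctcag
Gprin1: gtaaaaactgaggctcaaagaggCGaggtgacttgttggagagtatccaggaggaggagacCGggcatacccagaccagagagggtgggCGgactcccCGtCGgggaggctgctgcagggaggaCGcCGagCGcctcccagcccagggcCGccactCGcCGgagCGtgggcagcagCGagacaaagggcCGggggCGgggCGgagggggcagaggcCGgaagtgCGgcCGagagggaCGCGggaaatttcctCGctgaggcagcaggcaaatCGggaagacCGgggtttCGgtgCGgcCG
Wnt7a: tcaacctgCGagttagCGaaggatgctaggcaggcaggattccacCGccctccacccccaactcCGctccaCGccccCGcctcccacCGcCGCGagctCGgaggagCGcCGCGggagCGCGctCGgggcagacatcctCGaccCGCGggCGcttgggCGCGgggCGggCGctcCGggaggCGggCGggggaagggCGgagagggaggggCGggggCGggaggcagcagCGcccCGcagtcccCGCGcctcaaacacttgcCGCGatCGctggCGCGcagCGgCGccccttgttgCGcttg

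Peaks covered 0% of the Wnt7a promoter in FK866 plus succinate and 100% in each of the 4 others. They covered the Zfp385b promoter by 0% and 0% in FK866 plus succinate, 100% and 38.3% in FK866, and 100% in both Control libraries. Of the 65 lost promoters, 26 lay in a region without any FK866 plus succinate peak, among them those of Zfp385b, Gprin1, Wnt7a, Mark1, Cnr1, Lin54, Egr4 and Isl1. At the other 39 a peak remained in the region and no longer reached the promoter.

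Among all merged regions, the lost ones lay near a gene end, within 2 kb, in 23.8% of cases, above the 13.7% to 19.4% of the other pairs. The gained ones did so in 14.7%, within the 12.7% to 18.7% of the other pairs, and 56.5% of them lay inside genes away from the ends. Over all regions 23.0% were near a gene end. The strongest lost regions included chr5:100500693-100501313, 53 bp from Lin54, a subunit of the cell cycle repressor complex DREAM, and chr11:11692540-11693014, inside Ikzf1, the lymphoid factor Ikaros. Their weakest peaks ranked above 63.9% and 57.4% of the peaks of their lists. The top lost region was chr4:117124454-117125036, at the end of Tctex1d4, with 65.3%, and the next were near Ccdc177 or inside Arhgap45, Cdc37 and Fbxo5. After Ifi206, the strongest gained region was chr15:93514033-93514314, inside Prickle1, a planar polarity gene, at 67.0%. Others lay inside Cped1, Asb13 and Sgk1, the last a glucocorticoid-induced kinase gene, or outside genes, with Plod2, Bex6 and Psd2 nearest.

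Across all genes, windows were covered less with succinate. They were lower in 72.7% of the 15167 genes tested, with a median difference of -1.54 points. In 3714 windows both FK866 plus succinate libraries lay below all 4 others, against 407 to 1158 for any other pair (exact p = 0.0667), while the 551 above them ranked 14 of 15. limma called 3 windows narrower (0.0198%) and 0 wider (0%) at an adjusted p of 0.05, with 2113 narrower and 303 wider at an unadjusted p under 0.05. Scaling all libraries to the same distribution turned the median to 0.37 and left 0 calls, with 925 narrower and 927 wider at an unadjusted p under 0.05. This scaling gives every library the same distribution and so removes a shift shared by most windows. The even numbers after it therefore do not test the excess of narrower windows.

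Rpl3, a ribosomal protein gene, had 52.9% and 51.4% in FK866 plus succinate, 71.8% and 72.0% in FK866, and 71.8% and 72.3% in Control, a difference of -19.8 points (SE 0.916, limma adjusted p = 0.0475). Fam217b and Ppp1r3d, a glycogen phosphatase subunit gene, share 1 window, with 46.1% and 45.7% in FK866 plus succinate, 60.6% in both FK866 libraries, and 63.3% and 62.4% in Control (-15.8 points, SE 0.845, limma adjusted p = 0.0475). The groups were far apart at both windows. Within 1 kb of the site the Rpl3 difference was 0.45 points and that of Fam217b and Ppp1r3d -2.94, so the difference lay mostly at the flanks of both windows. Leaving out any 1 library ended all 3 calls (0 calls each). Of 16 ribosomal protein genes, 15 were lower, with a median of -4.03 points (-1.80 after scaling), 7 of 16 lay below without overlap and 1 passed the test. Over all windows 72.7% were lower and 24.5% below without overlap.

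The next narrower windows had adjusted p from 0.0540 by limma. Grb2, an adaptor of receptor kinases, had 57.3% and 60.2% in FK866 plus succinate, 77.8% and 76.7% in FK866, and 77.4% in both Control libraries. Eif4a3, a core factor of the exon junction complex, had 38.6% and 36.9% in FK866 plus succinate, 58.3% and 56.2% in FK866, and 50.8% and 49.2% in Control. The groups did not overlap at either, nor at Mars2, Naa16, Castor1, Shld1 and Mrpl10, with differences of -11.4 to -14.9 points. Within 1 kb of the site the difference was 0 points at Grb2 and -1.58 at Mars2.

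The wider windows of smallest p outside the interferon list did not pass the test, with limma adjusted p of 0.0540 to 0.0736. Rtp4, an interferon-inducible receptor transporter, had 50.8% and 51.0% in FK866 plus succinate, 14.8% and 0% in FK866, and 6.78% and 11.0% in Control. Trim30a, an interferon-inducible TRIM gene, had 46.9% and 49.5% in FK866 plus succinate, 30.1% and 27.3% in FK866, and 28.1% and 27.1% in Control. Trim12a, of the same cluster of similar genes, had 52.2% and 52.8% in FK866 plus succinate, 43.5% and 40.2% in FK866, and 37.6% and 35.9% in Control. All 3 were separated between groups. Plac8, which encodes a small cysteine-rich protein, had 55.2% and 54.1% in FK866 plus succinate, against 32.6% to 40.9% in the 4 others, and the RNA-binding protein gene Samd4 had 43.9% and 45.2% against 20.5% to 28.4%. Tmem54 had 29.1% and 28.4% against 8.88% to 14.1%, but ran the other way with the stricter peaks (-6.03 points) and with lists of equal length (-2.09).

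**Figure D5:**
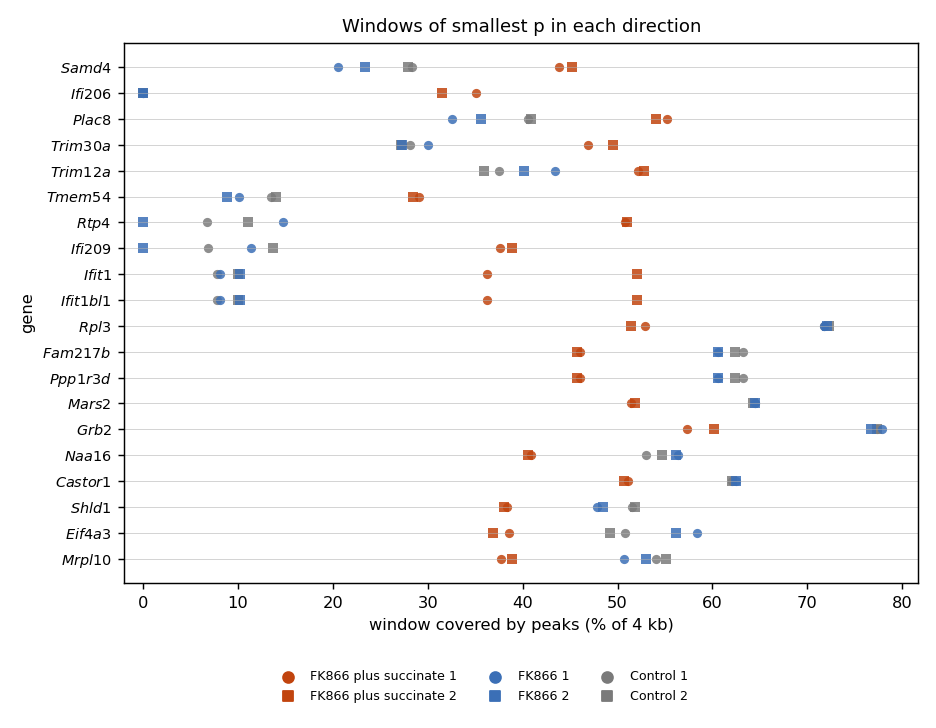
Percentage of the 4-kb window covered by peaks (x axis) in each library for the 10 windows of smallest p in the wider and in the narrower direction. FK866 plus succinate points lie right of the others in the upper 10 genes and left of them in the lower 10, as for Rpl3 at 52.9% and 51.4% against 71.8% to 72.3%.

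Genes of the treatments themselves were not gained or lost. Nampt, the target of FK866, had 43.8% and 44.2% in FK866 plus succinate, 53.0% and 59.6% in FK866, and 53.1% and 53.0% in Control (-10.7 points, limma adjusted p = 0.136). The groups did not overlap, but the difference did not pass the test. Among the subunits of succinate dehydrogenase, Sdhb had 36.2% and 35.5% in FK866 plus succinate, against 40.0% to 45.1% in the 4 others (adjusted p = 0.203 by limma), and Sdhd had 39.3% and 41.9% against 44.3% to 47.2% (adjusted p = 0.185). Sdha and Sdhc overlapped between the groups. Sucnr1 had no peak in any library. Of 15 genes of succinate handling 4 were higher and 11 lower, close to the 27.3% of all windows that were higher, and 0 were called. Of 21 genes of 2-oxoglutarate-dependent chromatin enzymes 9 were higher and 12 lower, with a median of -0.67 points, and 0 were called by limma (0 wider and 3 narrower at an unadjusted p under 0.05).

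Genes of ILC2 function differed in both directions, and none passed the test by limma. Over all windows 27.3% were higher, 3.63% lay above without overlap and 24.5% below. Of 11 cytokine genes 9 were higher, with a median of 1.19 points and 0 at an unadjusted p under 0.05, and 1, Il10, lay above all others, at 83.9% and 84.1% in FK866 plus succinate against 81.0% to 82.5%. Of 27 receptor genes 12 were higher and 15 lower (3 wider and 2 narrower at an unadjusted p under 0.05), with Ccr9, Il2rg and S1pr3 above without overlap and Ccr8, Icos and Klrg1 below. Ccr9, the gut-homing chemokine receptor gene, had 25.8% and 44.95% in FK866 plus succinate, 9.65% and 0% in FK866, and 14.6% and 8.43% in Control. Ccr8 had 75.8% and 73.6% in FK866 plus succinate, 84.0% in both FK866 libraries, and 83.6% and 80.9% in Control. The differences were 27.2 and -8.42 points (limma adjusted p = 0.177 and 0.106). Of the 16 ILC2 transcription factor genes 8 were higher and 8 lower, and Zbtb16 was the 1 that was lost.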

How the data were processed

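CUT&Tag was measured in 6 libraries. The submitters' processing notes name cutadapt 1.9, Bowtie2 2.5.0 and the build mm10. The sources used here do not name the peak caller. The authors called peaks per library and deposited lists of 10 columns, with a score, a fold enrichment (a ratio to local background), a -log10 p-value and a -log10 adjusted p-value per peak. These values are relative to 1 library and were used only to rank or filter peaks within a list. Depth as read counts is not given, so no counting interval was computed.

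Peaks overlapping by at least 1 bp were merged (Python 3.11.15, pandas 2.3.3, numpy 2.4.6). Genes and promoters came from RefSeq tables of GRCm38.p6. A gene's window reached 2 kb to either side of the peak summit with the highest mean percentile of -log10 p over the 6 libraries. Each presence count was ranked by exact enumeration of the 15 pairs (one-sided). Window coverage was compared with limma 3.58.1 in R 4.3.3 (lmFit, eBayes with trend, Benjamini-Hochberg over 15167 windows covered in at least 2 libraries, 3 groups, no scaling) as FK866 plus succinate minus the mean of the other 2 groups. The fit was also run on simulated normal values with the same spread for every window. Real coverage has a floor and unequal spreads, so that run cannot show how well the model suits these data. Named genes were the 12 gained and 12 lost genes with the highest lowest-library percentile, those of adjusted p under 0.05 first, the 8 regions per direction by the same measure, list members gained or lost, and the 10 windows of smallest p per direction. Alternatives were other peak choices, windows, scaling, fits and leaving out each library. The members, lists and tests were chosen with earlier results of these data known. A few genes that the naming rule or the lists include are not reported here.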

Additional observations from a re-analysis of the deposited data

Results flagged for a closer look

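In groups of 4 libraries, Dixon's test at the 95% level was considered for 43 named windows over the libraries without succinate, and 2 stood out. The gained genes among the 43 had no peak in these 4 libraries. Their windows therefore had no spread, and the test could not be applied to them. Fewer than 43 windows could be tested. At 1 in 20, some of those can stand out by chance alone. At Mars2, a mitochondrial tRNA synthetase gene, the second Control library had 64.3% of the window covered against 64.5% in the 3 others, a gap of a fraction of a point. At Zbtb16 the second FK866 library had 15.2% against 19.5% to 20.1% in the 3 others.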

How the results depend on the processing

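Leaving out 1 library loosens the presence rule, and the counts ran from 1822 to 18075 for gained regions, 740 to 1340 for lost regions, 54 to 328 for gained genes, 69 to 157 for lost genes, 35 to 274 for gained promoters and 81 to 173 for lost promoters. With peaks of adjusted p under 0.05 alone there were 259 gained regions, 21 gained and 105 lost genes, and 14 gained promoters. Lists of equal length gave 779 gained regions. The stronger 50% of each list gave 506 gained and 138 lost regions, 61 gained and 33 lost genes, and 41 gained promoters. Peaks of adjusted p under 0.05 inside with none of any strength outside gave 71 gained and 85 lost regions, 5 gained and 17 lost genes, and 6 gained and 35 lost promoters. Counting peaks over the gene span with 2 kb around it gave 37 lost genes (exact p = 0.2). The count of called windows, 3 by limma, was 0 after quantile normalization (1852 at an unadjusted p under 0.05), 52 with the stricter peaks, 96 with windows of 1 kb to either side and 121 with Control and FK866 as 1 group. It was 0 with eBayes without trend and between 0 and 0 when any 1 library was left out. With the replicate number as a replicate block it was 0 (smallest limma adjusted p 0.162). Same-numbered libraries deviated together with correlations of 0.011, -0.038 and 0.027. With 2 libraries per group these values cannot show if the numbers mark a shared culture, animal or batch. The median window difference reversed to 0.37 after quantile normalization, which removes a shift shared by most windows. Windows of 1 kb reversed Rpl3 (0.45 points), Naa16 (0.53) and Castor1 (2.28), and Tmem54 reversed with the stricter peaks (-6.03) and with equal lists (-2.09). The cause of the other changes was not tested. Over 43 named genes, 541 of 610 alternative values kept direction and side of the threshold, 29 no longer passed, 35 newly passed and 5 reversed. Under these settings 19 to 27 interferon-list windows were wider and 14 to 20 developmental-list windows narrower.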
